A study of Mus musculus with 2 samples.

Results

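The 5p arms of the miR-290 cluster were followed in mouse embryonic stem cells and in the embryoid bodies formed from them. Members were the mature miRNA probes named as a 5p arm of miR-290, miR-291a, miR-291b, miR-292, miR-293, miR-294 or miR-295 (mmu-miR-290-5p, mmu-miR-291a-5p, mmu-miR-291b-5p, mmu-miR-292-5p, mmu-miR-293-5p, mmu-miR-294-5p and mmu-miR-295-5p, where mmu stands for mouse), which gave 7 of the 1265 mature miRNA probes on the array. The cells were the ES-D3 line, derived from strain 129S2/SvPas and cultured in 15% fetal bovine serum, then moved to dishes of very low attachment to differentiate. Both groups come from this line and carry no further treatment in the labels: one is day 0 and the other day 10 of differentiation. Each day had 1 single-colour Cy5 array of total RNA, and the labels say neither how many cultures it represents nor whether feeder cells were present. No test was therefore possible, and every SD below is over the 3 spots of a probe, which is technical. The members and the lists were proposed with earlier results of these arrays known.

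A microRNA gene is transcribed as a hairpin. Both arms of the stem are cut out as short RNAs, called 5p and 3p by their end of the hairpin, and usually one of them is retained more than the other in Argonaute, the protein through which a miRNA represses its targets. Target choice rests mainly on the seed, bases 2 to 8 of the mature miRNA. The miR-290 cluster is the main miRNA locus of mouse embryonic stem cells, where its 3p arms are known for supporting a rapid cell cycle and the pluripotent state; far less is known of its 5p arms.

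The 7 hairpins lie in 2216 bases of chromosome 7, chr7:3218626-3220841 on the plus strand of GRCm38.p6. From low to high coordinate they are Mir290a, Mir291a, Mir292, Mir291b, Mir293, Mir294 and Mir295. RefSeq places 6 of them inside the long non-coding RNA gene D7Ertd143e (chr7:3218784-3221015). Mir290a lies wholly upstream of it, and the annotated span of the protein-coding gene Nlrp12 (chr7:3218643-3249771) covers the locus from within Mir290a onward. The short hairpins Mir290b and Mir292b are annotated on the opposite strand, within Mir290a and Mir292. All 7 probe targets matched a RefSeq mature miRNA base for base. For 5 of them the name was the same too, and miR-290-5p and miR-292-5p are called miR-290a-5p and miR-292a-5p there. The targets are shown with the seed in capitals because the seed sorts the members into groups.
miR-290-5p: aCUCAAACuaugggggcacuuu
miR-292-5p: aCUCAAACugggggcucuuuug
miR-293-5p: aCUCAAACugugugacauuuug
miR-294-5p: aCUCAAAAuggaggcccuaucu
miR-295-5p: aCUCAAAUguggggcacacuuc
miR-291a-5p: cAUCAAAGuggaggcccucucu
miR-291b-5p: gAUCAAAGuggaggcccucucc

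The letters UCAAA stand at bases 3 to 7 in each of the 7 targets and in no other target on the array, which is 0.553% of the 1265. miR-290-5p, miR-292-5p and miR-293-5p share a full seed, miR-291a-5p and miR-291b-5p share another, and miR-294-5p and miR-295-5p each have a seed of their own. The 3p arms carry a different seed built on AAGUGC, or the related GUGCCGC in miR-293-3p, shown here for an example of each.
miR-294-3p: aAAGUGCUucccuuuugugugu
miR-293-3p: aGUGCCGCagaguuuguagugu
The members with the seed CUCAAAC did not share one difference between the days, as their values show.

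All 7 members were detected on both arrays, where detected means a median over the 3 spots above a bound set by the 5 blank spots of the array, their 95th percentile (70.0 on day 0 and 71.4 on day 10). In scanner signal 6 of the 7 were dimmer on day 10 at all 3 spots, and miR-293-5p alone was brighter at all 3. Over the 739 probes detected on at least 1 array, 87.4% were dimmer at all 3 spots and 6.50% were brighter, so the day 10 array was dimmer for most miRNAs. Day 0 detected 738 of these probes and day 10 detected 476, and the 263 found on day 0 alone entered through the day where they are brighter. Among the 475 probes that both arrays detected, as they did the members, 81.9% were dimmer at all 3 spots and 9.89% brighter. The median log2 ratio of scanner signal, day 10 over day 0, was -0.61 for the members, -0.77 for the 739 probes and -0.74 for the 475. In total RNA, fewer cells that express a miRNA and less of it in each cell cannot be told apart.

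miR-293-5p had spot signals of 2173, 2079 and 2125 on day 0 and of 2952, 2463 and 2524 on day 10. The mean signal on day 10 was 1.24 times that of day 0. After normexp background correction with an offset of 50 and quantile normalization between the arrays, its level was 10.48 (SD 0.039) on day 0 and 11.79 (SD 0.14) on day 10 on the log2 scale. It was thus 2.48-fold higher on day 10, a log2 difference of 1.31 (SD 0.10) that ranked 20 among the 739 detected probes. It was the only member at least 2-fold higher, and 0 members were at least 2-fold lower, beside 6.77% and 10.4% of the 739 probes and 10.5% and 12.8% of the 475. A single member of 7 sets no share apart from those of the array.

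**Figure D1:**
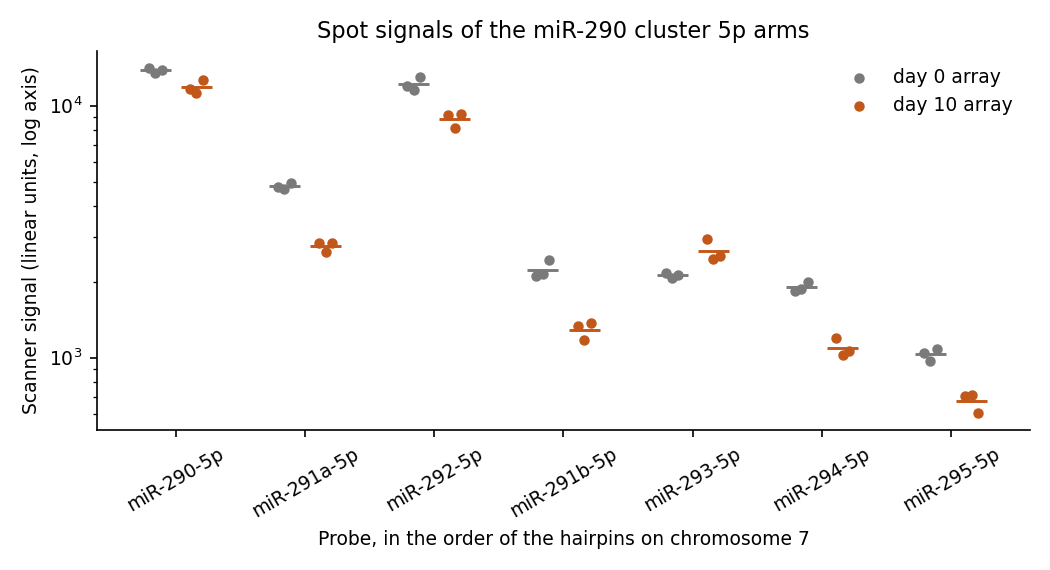
Scanner signal of the 7 miR-290 cluster 5p arms, as deposited, on a log axis; points are the 3 spots of a probe, bars their mean, grey the day 0 array and orange the day 10 array. The spots of miR-293-5p are higher on day 10 while those of the other 6 are lower, and levels of different probes are not comparable with each other.

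The other members with the seed of miR-293-5p differed less between the days. miR-290-5p had spots of 14121, 13471 and 13868 on day 0 and of 11660, 11283 and 12658 on day 10. Its ratio of mean signal, day 10 over day 0, was 0.859. After normalization its log2 difference was 0.25 (SD 0.10).
miR-292-5p had spots of 11939, 11549 and 13003 on day 0 and of 9209, 8172 and 9241 on day 10. Its ratio was 0.730. Its normalized log2 difference was 0.097 (SD 0.15), which is within its own spread over spots, and 1 of its 3 spot differences was below 0. The 3 members with the seed CUCAAAC therefore ran from 0.097 to 1.31.

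The members that share a central stretch of sequence had nearly equal ratios of scanner signal. miR-291a-5p, miR-291b-5p and miR-294-5p share a run of 10 bases, UGGAGGCCCU at positions 9 to 18 counted from the 5′ end, shown in capitals. No other target on the array holds that run on the strand of the miRNA. A run of this length is not particular to these members, however. miR-291a-5p shares another run of 10 bases with miR-328-3p and with miR-6395 outside the cluster, and miR-291b-5p shares 9 bases with each.
miR-291a-5p: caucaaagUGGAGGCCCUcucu
miR-291b-5p: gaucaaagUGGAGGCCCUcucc
miR-294-5p: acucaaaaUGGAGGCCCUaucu
miR-291a-5p and miR-291b-5p are the closest of the 21 member pairs. They are identical at 20 of 22 positions and differ by C1G and U22C, with the base of miR-291a-5p given first. miR-294-5p matches miR-291a-5p at 18 positions and miR-291b-5p at 17. miR-292-5p and miR-293-5p also match at 17 positions and share a run of 10 bases at their 5′ end. Their log2 ratios of scanner signal nonetheless differed by 0.77.

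miR-291a-5p had spots of 4756, 4663 and 4954 on day 0 and of 2864, 2622 and 2850 on day 10. The spots of miR-291b-5p were 2101, 2150 and 2451 on day 0 and 1334, 1177 and 1369 on day 10. Those of miR-294-5p were 1847, 1880 and 2005 on day 0 and 1199, 1025 and 1061 on day 10. The 3 ratios of mean signal were 0.580, 0.579 and 0.573, in the same order. The log2 ratios of scanner signal of these probes were -0.79 (SD 0.050), -0.79 (SD 0.12) and -0.81 (SD 0.16). These values were closer to each other than their spread over spots, and near the median of -0.77 over the 739 detected probes. How much of the signal of these 3 probes comes from each other's miRNAs was not tested. After quantile normalization the same probes stood at 0.074 (SD 0.044), 0.32 (SD 0.12) and 0.36 (SD 0.15). Quantile normalization adjusts each range of signal separately, so probes with equal ratios of scanner signal can receive different values.

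miR-295-5p, from the last hairpin of the cluster, had spots of 1039, 966.7 and 1083 on day 0 and of 702.6, 714.0 and 604.5 on day 10. Its ratio of mean signal was 0.654. Its normalized log2 difference was 0.53 (SD 0.19), the second highest of the members. It still stood 9.43 times above the detection threshold on day 10, the smallest such margin of any member on either array.

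Taking the members along the chromosome, the normalized log2 differences were 0.25, 0.074, 0.097, 0.32, 1.31, 0.36 and 0.53, from miR-290-5p at the upstream end to miR-295-5p. All 7 were above 0, as were 51.3% of the 739 probes detected on at least 1 array and 63.8% of the 475 detected on both. Their median was 0.32, against 0.024 over the 739 (quartiles of -0.42 and 0.44) and 0.22 over the 475. Without miR-293-5p the other 6 ran from 0.074 to 0.53 with a median of 0.28, so all but 1 of these 6 lay between the quartiles of the 739. The sign turned with the scaling: the median of all 7 members was -0.60 where the arrays were not normalized to each other, and -0.74 where they were scaled on the 5S rRNA probes.

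miR-293-5p was the highest member in the reported setting and in the 13 alternatives. Among these, no normalization and the 75th percentile, spike-in and 5S rRNA scalings shift all probes alike, so these 4 are a single comparison, in which it lay 0.53 above the next member on the log2 scale. In the other 9 alternatives it lay 0.69 to 1.02 above the next. Its own difference ran from 0.17 to 1.51 and was at least 1 in 11 of these 14 settings. The order of the other 6 was not stable. The next highest was miR-295-5p after quantile normalization and miR-290-5p where the arrays were only shifted against each other.

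**Figure D2:**
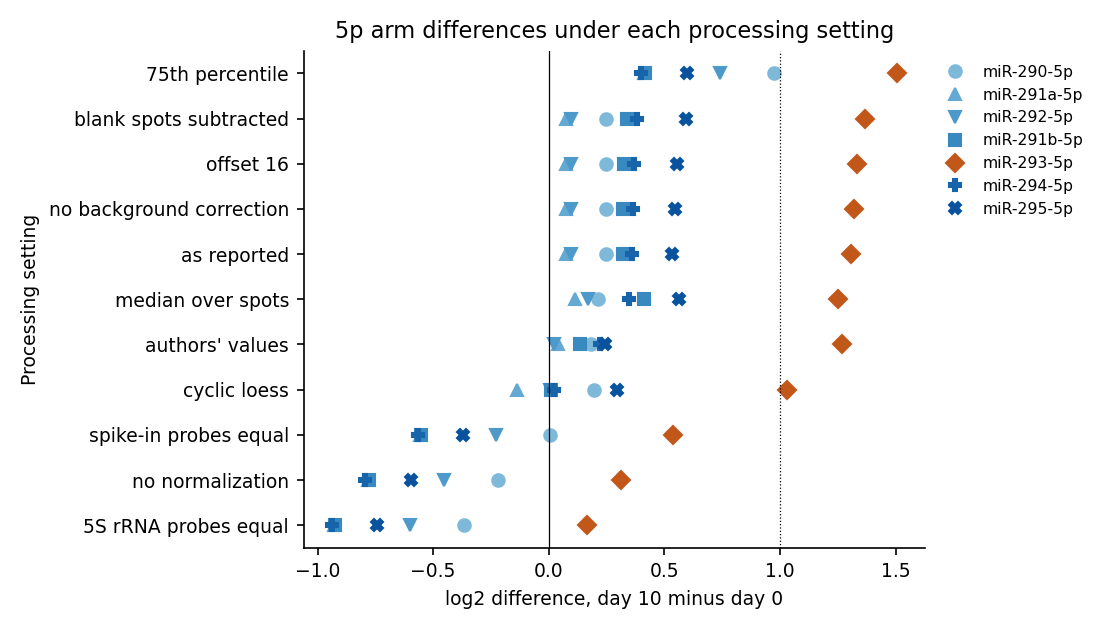
Log2 difference, day 10 minus day 0, of the 7 5p arms (symbols) under the reported setting and 10 of the alternatives; the solid line marks no difference and the dotted line 2-fold. miR-293-5p (orange) is the rightmost symbol in each row, while the other members cross 0 with the scaling.

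Base composition and a repeat were looked up beside this value. The target of miR-293-5p has a GC content of 36.4%, the lowest of the members, which otherwise ran from 45.5% to 59.1%. Over the 739 detected probes, GC content and the normalized difference were weakly related (Pearson r = -0.21, Spearman rho = -0.26), a description over probes of the same 2 arrays. The 129 detected probes with GC below 40% had a median difference of 0.36. Of these 129, 26 were at least 2-fold higher, beside 50 (6.77%) of all 739. The other 610 had a median of -0.032. The part of base composition in the value of miR-293-5p was not tested. The target also holds the repeat UGUGUG, in capitals here.
miR-293-5p: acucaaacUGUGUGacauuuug
The repeat occurs in 45 targets (3.56% of 1265), of which 43 were detected, with a median difference of -0.24. Of these 43, 17 were at least 2-fold lower and 1, miR-293-5p itself, was at least 2-fold higher. The value of miR-293-5p was the highest of any detected probe with the repeat. Neither these 43 nor the groups by GC content were split by the array that detected them. Probes found on day 0 alone enter such counts through the day where they are brighter.

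The 3p arm of the same hairpin gives each 5p arm a reference from the same precursor. The hairpin of Mir293 (chr7:3220343-3220422, plus strand) is shown with the 5p arm and then the 3p arm in capitals, because its arms differed most in the reported setting.
Mir293: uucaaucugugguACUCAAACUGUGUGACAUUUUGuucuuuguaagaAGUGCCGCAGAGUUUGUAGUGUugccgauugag
miR-293-3p had spots of 11685, 11196 and 12282 on day 0 and of 10888, 9711 and 11159 on day 10, and its normalized difference was 0.36 (SD 0.12). The 5p arm of this hairpin was thus higher by a further 0.94 (SD 0.097) than its 3p arm. That value ranged from 0.46 to 0.999 over 10 settings of background and scaling, of which 7 can differ in an arm comparison, and was above 0 in each.

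miR-291a showed the opposite. miR-291a-3p had spots of 3268, 3371 and 3318 on day 0 and of 3153, 2831 and 3136 on day 10, a normalized difference of 0.82 (SD 0.13), the highest of the 3p arms. The 5p minus 3p value of this hairpin was -0.75 (SD 0.090), and it ran from -0.77 to -0.66 over the same settings. In scanner signal the ratio of day 10 over day 0 was 0.580 for the 5p arm and 0.916 for the 3p arm.

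The other 4 hairpins had no stable difference between their arms. The 5p minus 3p value was -0.24 (SD 0.15) for miR-290, -0.37 (SD 0.19) for miR-292, 0.037 (SD 0.076) for miR-294 and 0.16 (SD 0.11) for miR-295. Each of these had both signs among the 10 settings, with ranges of -0.60 to 0.28, -0.38 to 0.0012, -0.24 to 0.19 and -0.41 to 0.21. miR-291b-3p was not well above background on either array (means of 64.4 and 68.2), so miR-291b gave no arm comparison, while its 5p arm was detected on both.

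**Figure D3:**
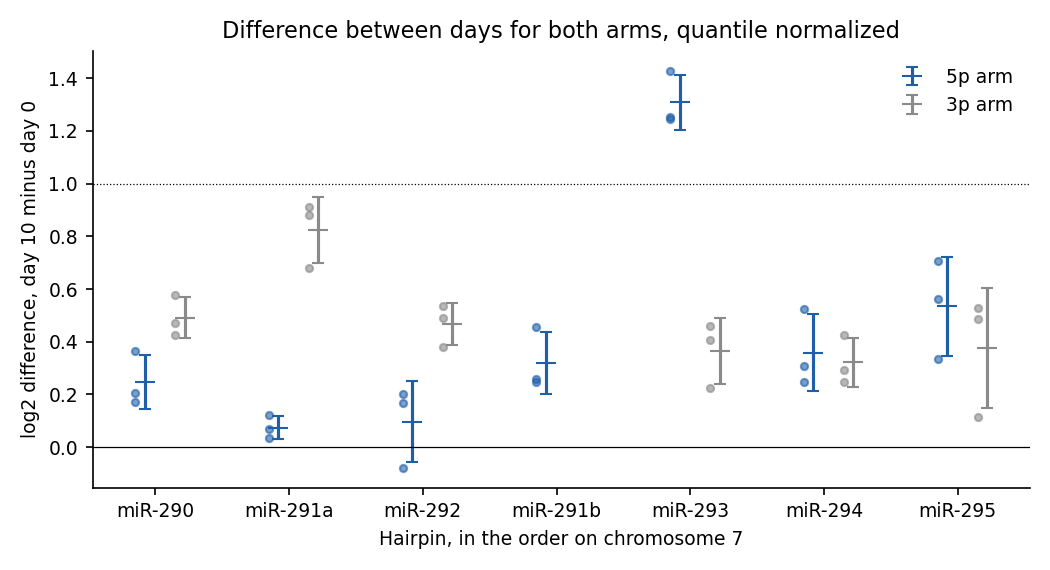
Log2 difference, day 10 minus day 0, of the 5p arm (blue) and 3p arm (grey) of each hairpin after quantile normalization; points are the 3 spots, bars their mean and SD, and the dotted line marks 2-fold. The 5p arm lies above the 3p arm for miR-293 (1.31 against 0.36) and below it for miR-291a (0.074 against 0.82); the 3p arm of miR-291b was not detected.

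These arm differences were not unusual among hairpins. Of 433 hairpins with both arms on the arrays, 159 had both arms detected on at least 1 array. Of these, 50.9% had arms that differed by at least 0.5 in size and 23.9% by at least 1, beside 2 and 0 of the 6 hairpins of the cluster. Among the 77 hairpins whose arms were both detected on both arrays, as in these 6, the shares were 48.1% and 22.1%. The 153 hairpins outside the cluster had a median 5p minus 3p value of -0.16, with quartiles of -0.72 and 0.31. The 6 of the cluster had a median of -0.10. miR-293 ranked 11 from the highest of the 159, and miR-291a 38 from the lowest.

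**Figure D4:**
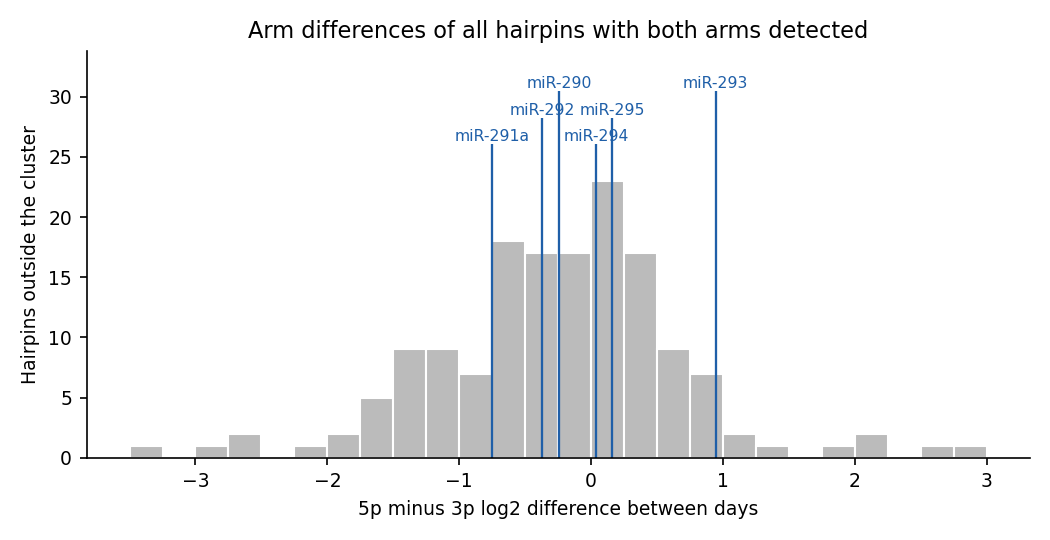
Histogram of the 5p minus 3p log2 difference between days for the 153 hairpins outside the cluster with both arms detected (bars, number of hairpins), with the 6 hairpins of the miR-290 cluster as blue lines whose heights only separate the names. The cluster lies between -0.75 (miR-291a) and 0.94 (miR-293), inside the range of other hairpins.

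The authors' processed values, whose scaling between the arrays is not given in the sources used here, also had miR-293-5p above the other members. They were 1481 on day 0 and 3634 on day 10 for miR-293-5p, a ratio of 2.45. For the other 6 members the ratio lay between 1.02 for miR-292-5p and 1.20 for miR-295-5p. The log2 difference of these values plus 50 was 1.27 for miR-293-5p and between 0.023 and 0.24 for the others.

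Other miRNAs of the cell types these samples could hold were read beside the members. Of the 7 3p arms of the cluster, 6 were detected, with 0 at least 2-fold higher or lower and a median of 0.42. The cluster of miR-302 and miR-367, the other embryonic stem cell cluster that shares the AAGUGC-type seed in its miR-302 3p arms, had 4 of 10 probes detected, 3 of them at least 2-fold higher. miR-302d-3p differed by 2.48 (SD 0.12) and miR-302a-3p by 2.05 (SD 0.18). Of 13 probes for fibroblast markers (the arms of miR-143, miR-145, miR-199, miR-214, miR-221 and miR-222), 10 were detected and 7 were at least 2-fold lower on day 10. Only 6 were detected on both arrays, 4 of them at least 2-fold lower, and the others passed detection through day 0, the brighter day. Their summed scanner signal was 7630 on day 0 and 1293 on day 10. A wider fibroblast list, which adds miR-125b-5p and the arms of further miRNAs common in such cells, had 22 of 29 probes detected and 11 at least 2-fold lower, or 8 of the 14 detected on both arrays. Its largest differences among probes that both arrays detected were -2.56 (SD 0.050) for miR-125b-5p and -2.38 (SD 0.17) for the probe shared by miR-199a-3p and miR-199b-3p. Beside these counts, 6.77% of the 739 probes detected on at least 1 array were at least 2-fold higher and 10.4% lower. Of the 475 detected on both arrays, the shares were 10.5% and 12.8%. The part of a change in cell makeup in the members' values was not tested.

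The miRNAs most like the members were sought by their difference between the days, the only pattern that 2 arrays can give. Among 462 probes outside the cluster that both arrays detected, the nearest to the members' median of 0.32 were miR-27b-3p (0.32, SD 0.077), miR-1949 (0.32, SD 0.077) and miR-1943-3p (0.32, SD 0.058). A likeness over 2 arrays describes no more than an equal ratio.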

How the data were processed

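Scanner signal is spot intensity, a linear median density deposited by the authors, per the file headers; whether background was subtracted is not stated. A second table of the authors' deposited processed intensity per probe served as an alternative, its scaling not given in the sources used here. Probes covered miRBase release 19, per the labels. Signals were corrected with normexp (offset 50, all spots) in limma 3.58.1 under R 4.3.3, log2 transformed, freed of control spots and quantile normalized. A level is the mean over 3 spots. Differences are day 10 minus day 0 over spots at the same position, on the scale of corrected signal plus 50, which understates changes of dim probes. With 1 array per day, a probe was counted as higher or lower at 2-fold or more if the brighter array detected it, without a p-value, and precision is limited by the number of arrays. Arms were compared by the difference of their log2 differences, never by level. These steps were tested on simulated data with known changes. True log2 changes of 2 and -2 were estimated at a median of 1.716 and -1.65, with 50 and 45 of 50 probes called. True changes of 1 and -1 were estimated at 0.804 and -0.784, with only 1 and 12 of 50 called. The rule therefore misses most changes of just 2-fold. Of 1065 unchanged probes 0 were called. The simulated arrays differed only by spread over spots, a common scaling of signal above background and the set changes. These changes were given to brighter probes alone. The counts therefore do not measure how often real differences between 2 arrays lead to a call, nor how changes of dim probes fare. Named miRNAs were all members with their 3p arms, the 2 with the largest difference in the list of miR-302 and miR-367 and in the fibroblast list among probes detected on both arrays, and the 3 nearest to the members' median. The members and lists were chosen with earlier results of these data known. Coordinates and the Mir293 hairpin are from RefSeq (GRCm38.p6), and mature sequences are the array's targets, matched to RefSeq. Among the members and their 3p arms, only the target of miR-292-3p had no RefSeq mature miRNA of identical sequence.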

Additional observations from a re-analysis of the deposited data

How the results depend on the processing

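The members' median log2 difference of 0.32 was -0.74 when scaled on the 5S rRNA probes, -0.37 when scaled on the spike-in probes, -0.60 with no scaling at all, 0.025 with cyclic loess, 0.18 in the authors' values and 0.60 with 75th percentile scaling. Relative to the probes detected on at least 1 array, it was 0.032 in the 4 settings that shift all probes alike. These are none, 75th percentile, spike-in and 5S rRNA, and they count as 1. With cyclic loess it was 0.067. Both values lie within its spread over spots of 0.12. It was 0.30 in the reported setting, 0.29 with offset 16 and 0.30 with no background correction. With blank spots subtracted it was 0.89. There the median of the detected probes was -0.55, while the members' own median was 0.34. The number of members at least 2-fold higher was 0 with no scaling and when scaled on the spike-in or 5S rRNA probes, and 1 in the other settings; the number at least 2-fold lower was 0 in each. The median arm difference of -0.10 was -0.020 with cyclic loess and -0.24 with no detection filter, where the undetected miR-291b-3p enters. Leaving out 1 spot position gave members' medians from 0.28 to 0.36 and arm medians from -0.11 to -0.078. Offset 16, no background correction, blank-spot subtraction, medians over spots and a doubled detection threshold moved neither median beyond its spread over spots. No paired analysis was possible because there was only 1 array for each day. The cause of the other shifts was not tested.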
